A study of Mus musculus with 28 samples.

Results

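The clock was followed through 10 genes: Per1, Per2, Per3, Cry1, Cry2, Clock, Nr1d1, Nr1d2, Dbp and Tef. They were matched by gene symbol, and all 24 of their probe sets were used, out of 34945 probe sets of 18193 genes with a single symbol. Per3 had 6 probe sets, Clock 4, Per2 and Tef 3 each, Nr1d2 and Dbp 2 each, and Per1, Cry1, Cry2 and Nr1d1 1 each. RNA had been hybridised to 28 Affymetrix arrays, 2 arrays labelled as biological replicates for each of 14 groups. The groups were a line named NIH3T3 K-ras (K-ras from here on) and NIH3T3, an immortalised mouse embryonic fibroblast line. Each line was grown at 1 mM glucose and sampled 24, 48 and 72 h after a medium change, and at 25 mM glucose and sampled at 0, 24, 48 and 72 h. Every culture had 4 mM glutamine and 10% newborn calf serum, and the medium was changed 18 h after seeding. There was no 0 h group at 1 mM, so the 0 h arrays at 25 mM serve both media. The labels name 1 line of each kind and give neither the allele, the promoter nor the clone behind the K-ras line.

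The mammalian clock is a feedback loop of transcription. The proteins CLOCK and BMAL1 (gene Arntl) bind E-boxes and switch on the Per and Cry genes, whose proteins then inhibit CLOCK and BMAL1. NR1D1 and NR1D2 (REV-ERB proteins) repress Arntl and Clock, ROR proteins activate them, and the factors DBP, TEF and HLF bind D-boxes in output genes and in some clock genes. Cultured fibroblasts carry such clocks, and a serum change can set the cells of a dish to a common phase. Samples taken 24 h apart after the medium change fall near the same phase of a daily cycle. Among themselves they can show drifts between days but not a daily rhythm. The samples taken at the medium change itself came before any setting of phase by it. Whether they shared the phase of the later samples was not tested, so differences from them cannot be read as drifts between days alone.

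Promoters of Per1, Per3, Tef and Dbp are shown for the binding letters they hold. Each run is the 250 bases before an annotated transcript start, from RefSeq on GRCm38.p6, 5′ to 3′ along the gene. Capitals mark an E-box (CACGTG) in Per1 and Tef and D-boxes (TTANGTAA, N any base) in Per3.
Per1, start 1, chr11:69098699-69098948, plus strand: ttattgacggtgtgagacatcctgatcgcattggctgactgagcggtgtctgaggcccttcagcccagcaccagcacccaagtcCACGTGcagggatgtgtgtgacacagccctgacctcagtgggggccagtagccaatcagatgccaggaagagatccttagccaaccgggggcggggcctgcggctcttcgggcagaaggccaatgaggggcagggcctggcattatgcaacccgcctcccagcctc
Per3, chr4:151044666-151044915, minus strand: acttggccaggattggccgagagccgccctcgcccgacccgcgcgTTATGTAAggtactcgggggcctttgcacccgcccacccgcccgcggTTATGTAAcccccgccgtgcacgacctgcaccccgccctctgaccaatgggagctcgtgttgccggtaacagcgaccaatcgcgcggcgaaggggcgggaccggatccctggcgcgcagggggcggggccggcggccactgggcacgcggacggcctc
Tef, start 1, chr15:81802423-81802672, plus strand: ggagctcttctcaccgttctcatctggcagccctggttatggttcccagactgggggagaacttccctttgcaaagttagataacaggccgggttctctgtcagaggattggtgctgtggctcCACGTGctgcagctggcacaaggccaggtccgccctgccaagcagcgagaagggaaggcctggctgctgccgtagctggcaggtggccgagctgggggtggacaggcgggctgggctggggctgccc
Tef, start 2, chr15:81811164-81811413, plus strand: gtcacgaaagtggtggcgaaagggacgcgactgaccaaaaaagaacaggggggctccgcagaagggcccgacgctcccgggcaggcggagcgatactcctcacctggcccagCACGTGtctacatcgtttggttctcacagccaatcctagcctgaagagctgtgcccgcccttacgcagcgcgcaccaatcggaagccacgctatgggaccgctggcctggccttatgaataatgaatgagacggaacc
Dbp, chr7:45704997-45705246, plus strand: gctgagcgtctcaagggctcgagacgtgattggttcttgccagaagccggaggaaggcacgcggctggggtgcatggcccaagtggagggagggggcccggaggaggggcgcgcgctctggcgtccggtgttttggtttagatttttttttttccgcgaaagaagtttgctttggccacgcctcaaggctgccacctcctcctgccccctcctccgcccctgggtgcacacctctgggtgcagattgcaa
Per1 and Tef each have 2 annotated starts here. The window of the other Per1 start, not shown, held none of the motifs searched. Counted from the start, the E-box began at position -166 for Per1 start 1 and at -127 and -138 for the starts of Tef. The D-boxes of Per3 began at -205 and -158. Dbp had none of the motifs searched in this window. The search covered both strands for the E-box, the D-box, the ROR element (AAN followed by TAGGTCA) and the cAMP response element TGACGTCA, and none of these overlapped another. Of all 32851 RefSeq promoter windows, 6.02% held the E-box, 2.06% the D-box, 0.177% the ROR element and 1.55% the cAMP response element. Windows were found for 9 of the 10 genes, 13 windows in all. Besides those shown, Cry1 had an E-box at -60, and the windows of Cry2, Clock, Nr1d1 and Nr1d2 held none of the motifs. These matches describe letters and not bound sites.

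All values below are log2 ratios of a probe set to its own median over the 28 arrays, so levels cannot be compared between genes and no gene can be called absent. Of the 28 arrays, 6 clustered with the other line on the 500 genes with the largest SD. These were replicate 1 of K-ras at 1 mM 48 h, 1 mM 72 h and 25 mM 0 h, replicate 1 of NIH3T3 at 1 mM 48 h and both NIH3T3 arrays at 1 mM 24 h. Labels were kept. Results without these 6 arrays are given for the 10 genes only, and not for every comparison. The bacterial hybridisation control bioC was low, under -0.6, on 12 arrays, all labelled NIH3T3, among them all 8 NIH3T3 arrays at 25 mM. Replicate 1 of K-ras at 25 mM 72 h had the highest bioC, 2.98. Across genes, the correlation between the 2 replicates of a group ran from -0.53 to 0.88, with a median of 0.27, and 6 arrays were most like their own replicate. The mean of 10 fibroblast markers ran from -1.12 to 1.05 on K-ras arrays and from -1.48 to 1.18 on NIH3T3 arrays. Ratios to the median cannot show whether a marker is present, so the labelled cell type could not be checked beyond this.

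Dbp varied most of the 10 genes, with an SD over the 28 arrays of 0.99 and 0.88 at its 2 probe sets, against a median of 0.29 over all probe sets. Next were Per3 (0.82) and Per1 (0.78), while Cry1 (0.37) and all 4 Clock probe sets (0.26 to 0.49) moved less. The Dbp probe sets followed each other closely (r = 0.90 over 28 arrays). Those of Per3 did not: 5 of them had r between -0.06 and 0.59 with the most variable one, 1421087_at, and SDs between 0.20 and 0.39. Tef's other probe sets had r of 0.74 and 0.49 with its most variable one, Per2's 0.25 and 0.24, Nr1d2's 0.25 and Clock's 0.23 to 0.55. A result from 1 probe set of Per2, Per3, Clock or Nr1d2 therefore stands for that probe set and not for the whole gene. Which probe set reports the gene best was not tested. Unless another is named, a gene is described by its most variable probe set.

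**Figure D1:**
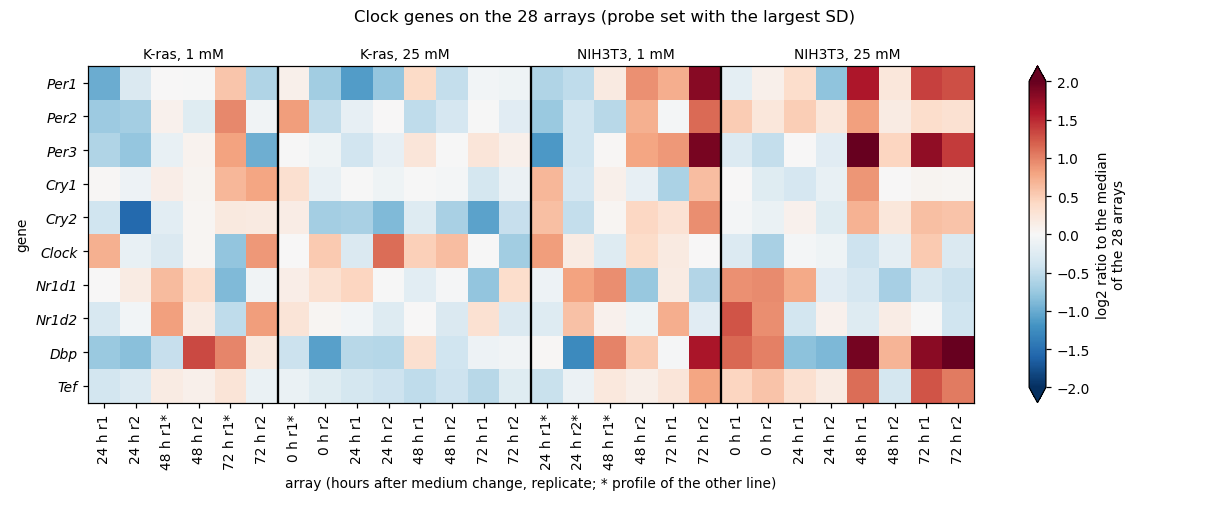
Log2 ratio to the median of the 28 arrays for each of the 10 genes (rows, most variable probe set) on each array (columns, by line, glucose, time and replicate); asterisks mark the 6 arrays with the profile of the other line. Per1, Per3 and Dbp have their highest group mean in NIH3T3 at 25 mM and 72 h, and Nr1d1 and Nr1d2 in NIH3T3 at 25 mM and 0 h.

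The first question was whether the clock genes changed after the medium change in NIH3T3 at 25 mM. Between 72 and 0 h, Per3 rose by about 2 log2 units at 1 probe set, and no other member passed the test (limma, adjusted p under 0.05 over all 34945 probe sets). Per1 was higher by 1.38 and Nr1d1 and Nr1d2 lower by 1.3 at 72 h, without passing. In all, 1 of 24 probe sets was called, against 5.11% of all probe sets. The differences were positive at 16 of 24, with a median of 0.24 against -0.07 over all probe sets. Both arrays at 72 h lay beyond both at 0 h for 17 of 24, where 59.7% of all probe sets did so. Fewer cells that express a gene and less RNA per cell cannot be told apart in these bulk samples.

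Among the Per genes, whose proteins repress CLOCK and BMAL1, Per3 lay at -0.28 and -0.48 at 0 h, 0.00 and -0.22 at 24 h, 2.06 and 0.43 at 48 h and 1.78 and 1.40 at 72 h. The 72 h arrays were both well above the 0 h arrays, and the 48 h arrays lay far apart. The difference of 72 minus 0 h was 1.97 ± 0.51 (SE, n = 2 arrays each), with an adjusted p of 0.0342 from limma and a 95% interval from 0.89 to 3.04. The other 5 Per3 probe sets differed by -0.13 to 0.85, and none of those was called. Per1 lay at -0.19 and 0.11 at 0 h, 0.35 and -0.80 at 24 h, 1.62 and 0.22 at 48 h and 1.37 and 1.30 at 72 h. Its pattern over the arrays was close to that of Per3, and its difference of 1.38 ± 0.51 had an adjusted p of 0.132. Per2 stayed within a narrow range, from 0.17 to 0.82 over the 8 arrays, and its difference was -0.04 ± 0.46.

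Of the Cry genes, partners of the PER proteins in repression, Cry2 lay at 0.61 and 0.57 at 72 h and at -0.03 and -0.14 at 0 h, but the difference of 0.67 ± 0.39 had an adjusted p of 0.367. Cry1 differed by 0.16 ± 0.35. Clock, the activator, differed by between 0.00 and 0.58 at its 4 probe sets, none called.

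The genes of the REV-ERB repressors took the other direction. Nr1d1 lay at 0.91 and 0.95 at 0 h, 0.76 and -0.22 at 24 h, -0.33 and -0.67 at 48 h and -0.32 and -0.44 at 72 h. Nr1d2 lay at 1.25 and 0.93 at 0 h, -0.37 and 0.09 at 24 h, -0.26 and 0.14 at 48 h and 0.00 and -0.40 at 72 h. For both, the 2 arrays at 0 h were above the 6 later ones. The difference of 72 minus 0 h was -1.31 ± 0.48 for Nr1d1 (adjusted p = 0.132) and -1.29 ± 0.40 for Nr1d2 (adjusted p = 0.0720), and the second Nr1d2 probe set gave -0.68 ± 0.37. Without the 6 arrays out of place, none of which is in these groups, the shared estimate of spread was smaller and 3 probe sets were called, where 9.61% of all were. These were Per3 (adjusted p = 0.0119), Nr1d2 (0.0222) and Nr1d1 (0.0460), with the same differences.

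Dbp, a D-box factor whose own gene is a strong target of CLOCK and BMAL1, lay at 1.14 and 1.00 at 0 h, -0.82 and -0.90 at 24 h, 1.91 and 0.68 at 48 h and 1.80 and 2.24 at 72 h. It was low on both arrays at 24 h and on no other NIH3T3 array at 25 mM. The difference of 24 minus 0 h was -1.94 ± 0.58, with an adjusted p of 0.870 from limma, where 0.00572% of all probe sets were called. At 72 minus 0 h it was 0.95 ± 0.58 at this probe set and 0.86 ± 0.59 at the other, neither called. That other Dbp probe set, 1418174_at, was less clearly low at 24 h, at -0.12 and -0.92, with replicate 2 at 48 h at 0.11. Tef, a D-box factor of the same family, lay at 0.43 and 0.57 at 0 h, 0.33 and 0.16 at 24 h, 1.12 and -0.35 at 48 h and 1.26 and 1.03 at 72 h. Its difference at 72 minus 0 h was 0.65 ± 0.31 (adjusted p = 0.264).

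The 10 fibroblast markers moved with some of these genes in NIH3T3 at 25 mM. Their mean lay at -0.63 and -0.93 at 0 h, -0.99 and -1.48 at 24 h, 0.91 and -0.61 at 48 h and 1.18 and 0.97 at 72 h. As with Per1, Per3 and Dbp, replicate 1 at 48 h lay near the 72 h arrays and replicate 2 nearer the earlier ones. Over the 28 arrays, the marker mean had an r of 0.66 with Per3, 0.52 with Per1, 0.46 with Dbp and -0.44 with both Nr1d1 and Nr1d2. With the rest r was lower, at 0.24 for Tef, 0.08 for Per2, 0.06 for Cry2, 0.05 for Cry1 and 0.04 for Clock. The part of these markers in the result was not tested. When any 1 of the 4 arrays at 0 and 72 h was left out, Per3 was no longer called (adjusted p from 0.125 to 0.237), with differences from 1.78 to 2.16.

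**Figure D2:**
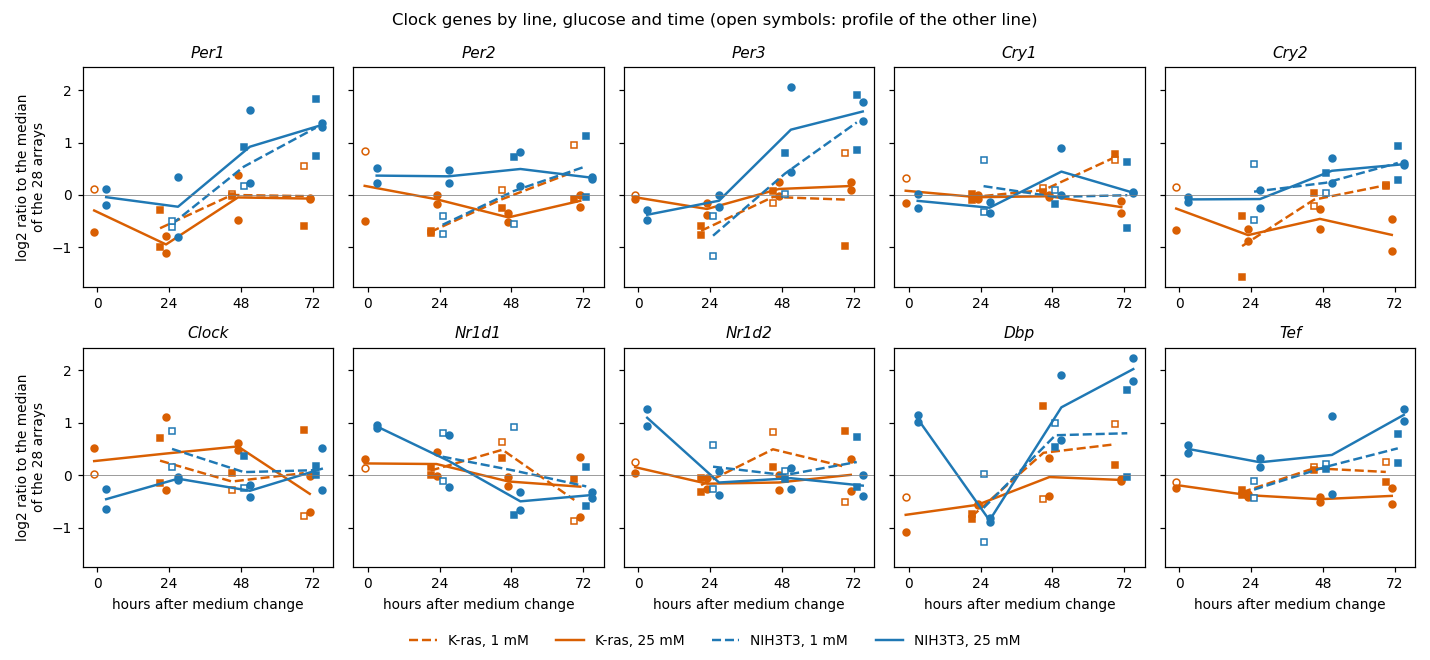
Log2 ratio to the median of the 28 arrays against hours after the medium change, for each gene's most variable probe set; points are single arrays (circles 25 mM, squares 1 mM, open symbols the 6 arrays with the profile of the other line) and lines join group means. Per1, Per3 and Dbp are above 1.2 on both NIH3T3 arrays at 25 mM and 72 h, while K-ras arrays at 25 mM stay at 0.39 or below for these genes.

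In K-ras cells at 25 mM, 0 of 24 probe sets were called between 72 and 0 h (limma), as were 0% of all probe sets, and 1 of 24 had an unadjusted p under 0.05, as did 14.2% of all. Per3 lay at 0.00 and -0.08 at 0 h, -0.38 and -0.16 at 24 h, 0.24 and -0.01 at 48 h and 0.25 and 0.09 at 72 h. Its whole range over these 8 arrays was smaller than the gap between the 2 NIH3T3 arrays at 48 h. The differences of 72 minus 0 h were 0.21 ± 0.51 for Per3, 0.23 ± 0.51 for Per1, 0.67 ± 0.58 for Dbp and -0.44 ± 0.48 for Nr1d1. The smallest p among members was at Clock probe set 1418659_at, which lay at -0.04 and -0.13 at 72 h and at 0.38 and 0.64 at 0 h (difference -0.59 ± 0.21, adjusted p = 0.258). One of the 0 h arrays in this comparison is out of place, and without the 6 arrays 0 of 24 were again called, against 0.0229% of all.

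Whether the 72 minus 0 h difference itself differed between the lines was tested as an interaction at 25 mM. No member was called in limma (0 of 24, against 0.00286% of all), and 2 of 24 had an unadjusted p under 0.05, as did 10.5% of all. For Per3 the K-ras difference less the NIH3T3 difference was -1.75 ± 0.72 (adjusted p = 0.437). Cry2 gave -1.17 ± 0.55 (adjusted p = 0.468), Tef -0.86 ± 0.44 and Nr1d2 1.15 ± 0.57. The call for Per3 in NIH3T3 and its absence in K-ras cells is therefore no shown difference between the lines. In simulated data with independent noise and no array out of place, this interaction test found 4% of true changes sized 1 log2 unit and 61% of those sized 2.

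The lines were then compared at 25 mM. Averaged over the 4 times, Tef, Dbp, Cry2 and Per1 were lower in K-ras cells, by between 0.38 and 1.24 log2 units. Called were 7 of 24 probe sets, all lower in K-ras (limma), where 10.0% of all probe sets were called and 5.13% were called lower. All 3 Tef and both Dbp probe sets were among the 7. The differences were positive at 4 of 24, the 4 Clock probe sets, with a median of -0.25 against -0.03 over all.

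Tef was the most firmly called. It ran from -0.55 to -0.14 with a median of -0.38 on the 8 K-ras arrays, and from -0.35 to 1.26 with a median of 0.50 on the 8 NIH3T3 arrays. Only 1 NIH3T3 array, replicate 2 at 48 h, lay within the K-ras range. The difference was -0.93 ± 0.16 (adjusted p = 0.00468), and the other 2 Tef probe sets gave -0.67 ± 0.20 (0.0446) and -0.38 ± 0.11 (0.0364). Dbp ran from -1.09 to 0.33 with a median of -0.41 in K-ras cells and from -0.90 to 2.24 with a median of 1.07 in NIH3T3. The ranges overlapped because both NIH3T3 arrays at 24 h were as low as K-ras arrays. Its differences were -1.24 ± 0.29 (adjusted p = 0.0132) and -1.19 ± 0.29 (0.0178).

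Cry2 ran from -1.07 to 0.15 with a median of -0.65 in K-ras cells and from -0.24 to 0.70 with a median of 0.16 in NIH3T3, a difference of -0.78 ± 0.19 (adjusted p = 0.0174). The highest K-ras value came from the array at 0 h that is out of place, and the other 7 K-ras arrays, at -0.26 or below, were all under the lowest NIH3T3 array. Per1 ran from -1.11 to 0.39 with a median of -0.28 in K-ras cells and from -0.80 to 1.62 with a median of 0.29 in NIH3T3, a difference of -0.84 ± 0.25 (adjusted p = 0.0458). Not called were Per3 (-0.59 ± 0.25, adjusted p = 0.164), Per2 (-0.50 ± 0.23, 0.194), Cry1 (-0.09 ± 0.18), Nr1d1 (-0.06 ± 0.24) and Nr1d2 (-0.21 ± 0.20 and -0.32 ± 0.18). Clock was higher in K-ras cells at all 4 probe sets, by 0.17 to 0.39, without passing (lowest adjusted p = 0.0543).

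Without the 6 arrays out of place, 8 of 24 were called, against 16.2% of all probe sets. Per2 was then lower in K-ras cells by 0.67 ± 0.17 (adjusted p = 0.0134): the 7 K-ras arrays left lay between -0.51 and 0.00 and the 8 NIH3T3 arrays between 0.17 and 0.82, with no overlap. Clock probe set 1418659_at was then higher in K-ras cells by 0.36 ± 0.10 (0.0218). Tef probe set 1438033_at was no longer called (0.0694), and the other 6 calls held.

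At 25 mM the split by bioC is the split by line, so these 2 cannot be told apart there. With bioC as a term, the size of the bioC effect comes from the gaps between the 2 replicates of NIH3T3 at 1 mM 48 h and at 1 mM 72 h, the groups with 1 array of high and 1 of low bioC. The array of high bioC at 1 mM 48 h is one of the 6 out of place. In that fit 0 of 24 were called, as were 0 of all 34945 probe sets, against 3501 without the term. The differences of the 7 probe sets then ran from -1.24 to 0.08, with Per1 at 0.08. The mean of 6 epithelial markers, Krt14 among them, also moved with the lines at 25 mM. It was between -0.84 and -0.47 on the 7 K-ras arrays in place and between 0.22 and 0.74 on the NIH3T3 arrays. Krt14 alone lay between -4.58 and -3.90 on these K-ras arrays and between 0.95 and 2.17 on these NIH3T3 arrays. Much of the split in the mean is therefore this 1 gene, and the other markers were not examined apart from it. The part of bioC or of these markers in the result was not tested.

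At 72 h alone, 1 of 24 was called, against 0.704% of all probe sets: Tef, at -0.55 and -0.24 in K-ras cells and at 1.26 and 1.03 in NIH3T3 (difference -1.54 ± 0.31, adjusted p = 0.0367). Dbp lay at -0.11 and -0.08 in K-ras cells and at 1.80 and 2.24 in NIH3T3, the largest of the member differences here (-2.11 ± 0.58, adjusted p = 0.0772). Cry2 differed by -1.35 ± 0.39 (0.0838), Per3 by -1.42 ± 0.51 (0.142) and Per1 by -1.40 ± 0.51 (0.145). The K-ras and NIH3T3 arrays did not overlap for 14 of 24, where 48.2% of all probe sets did not. Without the 6 arrays out of place, both Dbp probe sets (adjusted p = 0.0126 and 0.0465), Tef (0.0157) and Cry2 (0.0318) were called, where 7.80% of all were. Leaving out either K-ras replicate 1 or an NIH3T3 array at 72 h ended the call for Tef (adjusted p from 0.214 to 0.301).

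**Figure D3:**
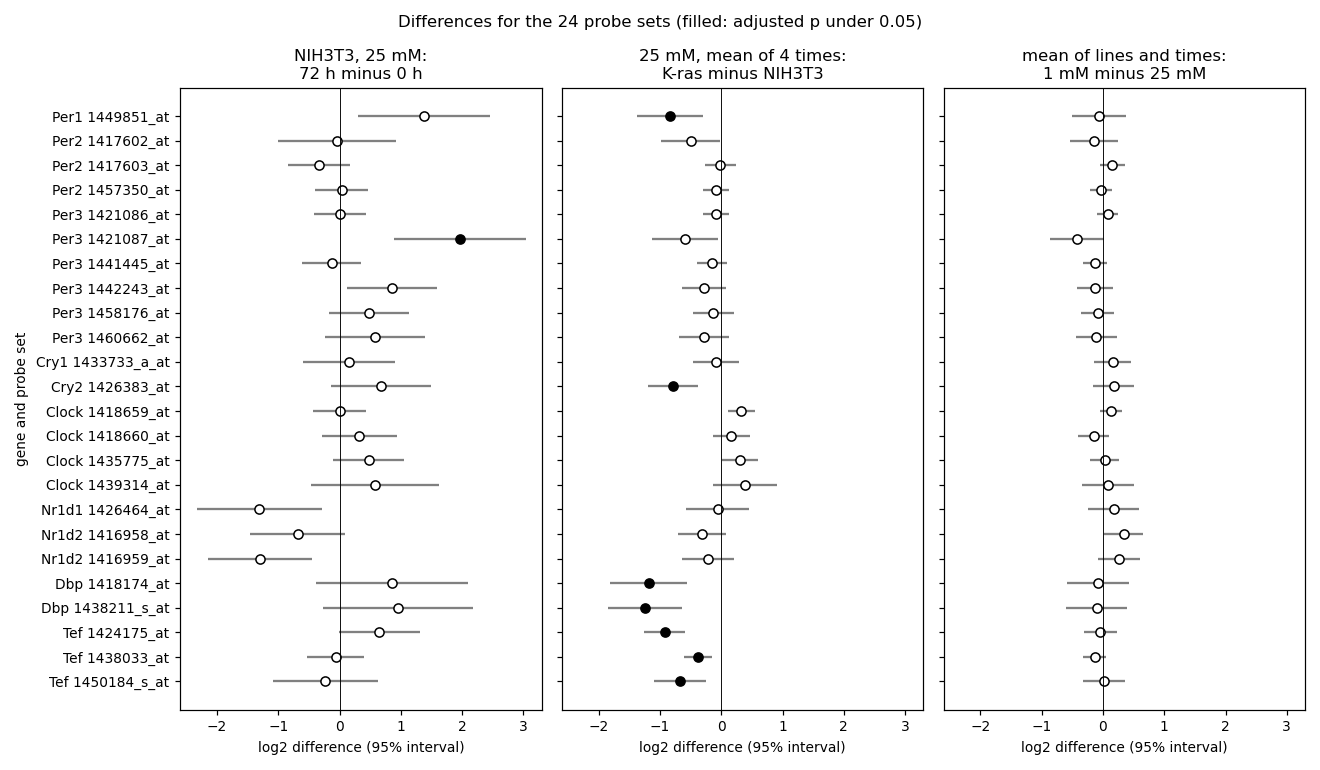
Log2 difference and its 95% interval for all 24 probe sets in 3 comparisons (72 minus 0 h in NIH3T3 at 25 mM, K-ras minus NIH3T3 at 25 mM as a mean over 4 times, 1 minus 25 mM as a mean over lines and times); filled points have an adjusted p under 0.05. Filled are Per3 1421087_at on the left and 7 probe sets of Per1, Cry2, Dbp and Tef in the middle, all below 0, and none on the right.

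The study was designed to find genes that respond to glucose, and no clock gene was called for it. As a mean over both lines and 24, 48 and 72 h, 0 of 24 were called in limma, as were 0% of all probe sets, and 1 of 24 had an unadjusted p under 0.05, as did 5.27% of all. That one was Nr1d2 probe set 1416958_at, higher at 1 mM by 0.34 ± 0.15 (adjusted p = 0.938). Per3 differed by -0.42 ± 0.21 (0.951). The 95% intervals bound the mean difference to between -0.60 and 0.40 for Dbp, -0.50 and 0.38 for Per1, -0.32 and 0.22 for Tef and -0.24 and 0.59 for Nr1d1. A miss here does not show that the media act alike. Over the 5 differences that remain without the 6 arrays, the members ran from -0.45 to 0.31, none called, where 105 of the 34945 probe sets were.

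At 72 h in NIH3T3, 0 of 24 were called (limma, against 0.00286% of all) and 1 had an unadjusted p under 0.05, as did 6.60% of all. This was Dbp, at -0.03 and 1.63 at 1 mM and at 1.80 and 2.24 at 25 mM (difference -1.22 ± 0.58, adjusted p = 0.757). The 2 arrays at 1 mM lay further apart than the groups. In K-ras cells at 72 h, 0 of 24 were called (against 0.200% of all) and 3 had an unadjusted p under 0.05, as did 14.6% of all. Nr1d2 probe set 1416958_at lay at 0.18 and 0.96 at 1 mM and at -1.07 and -0.24 at 25 mM (difference 1.23 ± 0.37, adjusted p = 0.150), while the other Nr1d2 probe set differed by 0.16 ± 0.40. Cry1 lay at 0.66 and 0.79 at 1 mM, above all other group means of that gene, and at -0.35 and -0.11 at 25 mM (0.95 ± 0.35, adjusted p = 0.228). Cry2 lay at 0.19 and 0.18 at 1 mM and at -1.07 and -0.45 at 25 mM (0.95 ± 0.39, 0.272). Replicate 1 at 1 mM is out of place. Without the 6 arrays the difference at Nr1d2 probe set 1416958_at was 1.62, with 1 array, at 0.96, left at 1 mM.

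The glucose difference at 72 h, K-ras less NIH3T3, was called for 0 of 24 (limma, as for 0% of all probe sets), and 3 had an unadjusted p under 0.05, as did 11.6% of all. It was 1.49 ± 0.52 for Nr1d2 probe set 1416958_at (adjusted p = 0.300), 1.10 ± 0.44 for Tef (0.356) and 1.90 ± 0.82 for Dbp (0.388). In the 20 remaining comparisons at single times, none of the 480 pairs of a member probe set and a comparison was called in limma, with between 0% and 0.114% of all probe sets called in each (0.0372% at 48 minus 0 h in NIH3T3 and 0.0286% between the lines at 25 mM and 24 h, and 0.00858% both for glucose in NIH3T3 at 24 h and for NIH3T3 at 1 mM and 48 h against 0 h). An unadjusted p under 0.05 was found for 49 of the 480, or 10.2%, against 7% over all probe sets. Many of these comparisons share arrays. Without the 6 arrays out of place, 1 pair was called among those of the comparisons that kept 2 arrays in each group. Clock probe set 1418659_at was higher in K-ras cells than in NIH3T3 at 25 mM and 24 h by 0.70 ± 0.18 (adjusted p = 0.0468, where 4.72% of all probe sets were called). At 1 mM and 72 h the Per3 difference, K-ras less NIH3T3, was then -2.36. Its K-ras side was 1 array, replicate 2 at -0.98, since replicate 1, at 0.80, is out of place.

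The order of the 14 group means was mostly unresolved. Of 130 pairs of neighbouring groups, 13 for each gene, 8 did not overlap. The same count was not made over all genes, so it describes the members only and shows nothing particular to them. NIH3T3 at 25 mM and 72 h was highest for Dbp (2.02 ± 0.31, SD, n = 2), Per3 (1.59 ± 0.26), Per1 (1.33 ± 0.05) and Tef (1.15 ± 0.16). For Per1 and Per3 the next group was NIH3T3 at 1 mM and 72 h, at 1.28 ± 0.77 and 1.38 ± 0.73, within its spread of the first. For Tef the next was the same group (0.51 ± 0.38), and its arrays did not overlap with the first. NIH3T3 at 25 mM and 0 h was highest for Nr1d1 (0.93 ± 0.03) and Nr1d2 (1.09 ± 0.23), and NIH3T3 at 1 mM and 72 h for Per2 (0.55 ± 0.83) and Cry2 (0.61 ± 0.45). Cry1 was highest in K-ras cells at 1 mM and 72 h (0.72 ± 0.09) and Clock in K-ras cells at 25 mM and 48 h (0.55 ± 0.10). At the low end stood K-ras cells at 24 h for Per1 (25 mM, -0.94 ± 0.24), Per2 (1 mM, -0.70 ± 0.03) and Cry2 (1 mM, -0.98 ± 0.82), and NIH3T3 at 25 mM and 24 h for Dbp (-0.86 ± 0.05).

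Across the 28 arrays Per1, Per2, Per3, Cry2, Dbp and Tef moved together. Their 15 pairs had r between 0.49 and 0.90, with a median of 0.68, and Per1 with Per3 was the closest. These 6 genes were grouped after their values were seen, so the figures are a description. The other 30 pairs of members had r between -0.50 and 0.49, with a median of -0.12. Nr1d1 and Nr1d2 had r = 0.48 with each other, and Nr1d1 had r = -0.50 with Per3. The arrays share groups and the array-wide differences described above, so no p is given. Without the 6 arrays out of place the 15 pairs ran from 0.61 to 0.90.

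Among genes outside the clock lists, the 1 most like each member by r over the 28 arrays was Pltp for Per1 (0.96), Glb1l for Per3 (0.94), Ank2 for Cry2 (0.92), Mdp1 for Clock (0.90) and Poglut1 for Tef (0.90). For Dbp it was AU040320 (0.89), for Cry1 Ube2w (0.89), for Per2 Pmaip1 (0.865), for Nr1d1 Actg2 (0.81) and for Nr1d2 Pax6 (0.76). Each is the highest of the values over all other genes.

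**Figure D4:**
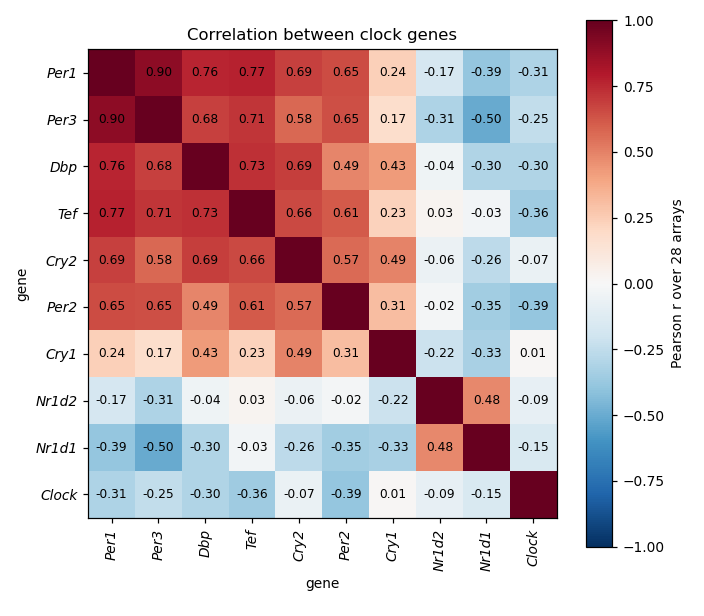
Pearson r over the 28 arrays between the 10 genes, each by its most variable probe set, with red for positive and blue for negative r. Per1, Per3, Dbp, Tef, Cry2 and Per2 form a block of r between 0.49 and 0.90, and Nr1d1 has negative r with all 6.

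The wider clock was read from 22 other genes, of which 20 were measured, at 57 probe sets. Between 72 and 0 h in NIH3T3 at 25 mM, 7 of the 57 were called, 4 higher and 3 lower, against the 5.11% of all probe sets. Arntl, which encodes BMAL1, lay at -1.80 and -1.18 at 0 h, -0.54 and -0.75 at 24 h, 0.90 and 0.19 at 48 h and 0.42 and 0.56 at 72 h. Each pair of arrays at 48 and 72 h was above all arrays at 0 and 24 h, the opposite direction to Nr1d1 and Nr1d2, whose proteins are known to repress this gene. Its difference of 72 minus 0 h was 1.98 ± 0.34 (adjusted p = 0.00598), and a second Arntl probe set gave -0.16. Rora, an activator of Arntl, rose by 2.38 ± 0.63 at 1 probe set (0.0365), with -0.21 to 2.47 at its others. Arntl2 (0.87, adjusted p = 0.0483) and Npas2 (0.54, 0.0348), paralogs of Arntl and Clock, rose too, each at 1 of 2 probe sets. For Npas2 this was not the most variable one. Noct, a rhythmic phosphatase once classed as a deadenylase, lay at -0.30 and -0.03 at 0 h, 0.10 and -0.18 at 24 h, -2.0 and -1.64 at 48 h and -3.39 and -3.02 at 72 h. It fell by 3.04 ± 0.53 (0.00598). Csnk1d, a kinase of PER proteins, and Prkaa2, a catalytic subunit of AMPK, fell by 0.82 (0.0343) and 0.99 (0.0263) at 1 probe set each.

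In K-ras cells at 25 mM, Noct lay between -0.23 and 0.46 at all times and Arntl between -0.55 and 0.37. K-ras minus NIH3T3 at 72 h was 3.50 ± 0.53 for Noct (adjusted p = 0.0170), the 1 called of 57, against 0.704% of all. As a mean over the 4 times 6 of 57 were called, against 10.0%. Noct (1.51 ± 0.26, adjusted p = 0.00473) and both Hlf probe sets (1.17 ± 0.31, 0.0245, and 0.55 ± 0.16, 0.0363) were higher in K-ras cells, and Npas2 (-0.25), Prkaa2 (-0.43) and Gsk3b (-1.0) were lower at 1 probe set each. With bioC as a term none of these 6 was called, since no probe set tested was. Hlf encodes the relative of DBP and TEF, which were lower in the same comparison. It lay at -1.0 and 0.28 at 0 h, 0.21 and 0.06 at 24 h, 3.26 and 1.22 at 48 h and 3.33 and 1.27 at 72 h in K-ras cells. The 2 replicates at 48 and at 72 h were about 2 log2 units apart. Replicate 1 of K-ras at 25 mM 0 h is out of place, and no result without it is given for the other clock genes. No interaction of line and time was called for these genes (Arntl -1.53 ± 0.49, adjusted p = 0.417; Noct 3.13, adjusted p = 0.375).

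**Figure D5:**
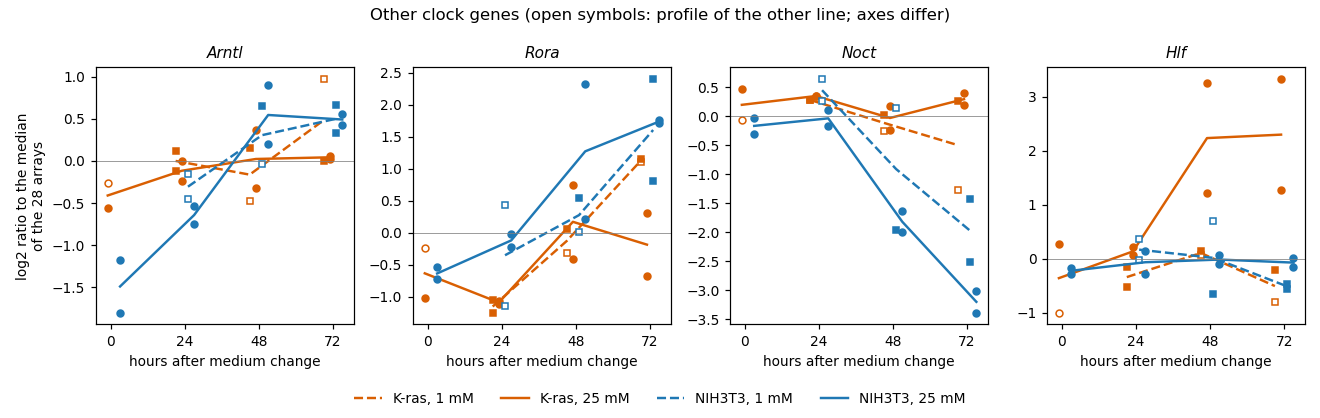
Log2 ratio to the median of the 28 arrays against hours after the medium change for Arntl, Rora, Noct and Hlf; symbols and lines are as in the plot of the 10 genes by time, and the vertical axes differ. Arntl and Rora are higher and Noct lower on the NIH3T3 arrays at 25 mM and 72 h than at 0 h, and Hlf is above 1.2 on all 4 K-ras arrays at 25 mM and 48 or 72 h.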

How the data were processed

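Total RNA was measured on Affymetrix arrays, and RMA is named per the submitters' processing notes, with no version. The deposited values are log2 ratios to each probe set's own median over the 28 arrays: 45101 of 45101 probe sets had a linear median of 1 within 0.001. Levels, background and detection calls are therefore unknown, and only the number of arrays limits the precision that can be stated. A planned filter on dim probe sets was replaced by one on SD. Symbols came from the platform annotation; 932 probe sets with several symbols and 9160 with none were left out. Columns left unused numbered 0.

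limma 3.58.1 in R 4.3.3 was fitted with 1 coefficient per group on all 28 arrays (residual degrees of freedom 14, with moderation 17.12). Benjamini-Hochberg adjustment of p-values ran over all 34945 probe sets within a comparison, and an adjusted p under 0.05 was called. Errors of differences are standard errors. p-values measure only the spread between samples that the labels call biological replicates. The 10 genes were given by name. The most variable probe set of each (by SD over all arrays, labels unused) stands for it in plots and correlations. Other clock genes came from a list of 22, those called being named, and the gene most alike was the one with the highest r. The genes, lists, bioC threshold and arrays out of place were chosen with earlier results of these data known.

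Replicate numbers were not taken as pairs in the main fit. Over 91 pairs of groups, deviations of same-numbered arrays correlated between -0.68 and 0.69 (median -0.04). In some groups replicate 1 was out of place and replicate 2 was not, which enters these values. The check therefore cannot decide whether the numbers pair the samples. On simulated data 200 of 34945 probe sets were changed, by 1 or 2 log2 units. Recovered were 26% and 82% for 72 minus 0 h in NIH3T3, 83% and 98% for the mean line difference and 97% and 99% for the mean glucose difference. The simulated noise was independent between arrays and probe sets, with no array out of place and no bioC split. These shares therefore do not give the power on the real arrays. Alternatives were another quantile normalisation, the SD filter, 1 probe set per gene, fits on only the arrays compared, a replicate block, the fit without the 6 arrays out of place, bioC as a term and each array left out. Chosen after seeing the data were the glucose mean of 5 differences and the fit that also leaves out replicate 1 of K-ras at 25 mM 72 h. Promoter windows are RefSeq's on GRCm38.p6. Python 3.11.15 and matplotlib 3.10.9 were used for plots.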

Additional observations from a re-analysis of the deposited data

How the results depend on the processing

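Counts are member probe sets called in limma. For 72 minus 0 h in NIH3T3 (1 as reported) the count was 9 when only the arrays compared were fitted, 3 without the 6 arrays out of place, 3 when replicate 1 of K-ras at 25 mM 72 h was left out too, and 0 to 0 with 1 array left out. The counts over all probe sets moved too: 1785 as reported, 8205 on only the arrays compared, 3357 without the 6 arrays, 4197 with the seventh left out, and 31 to 379 with 1 array left out. For the line difference at 72 h (1) it was 0 with quantile normalisation, the replicate block (Tef adjusted p = 0.0515), the bioC term or 7 arrays left out, 2 with the SD filter, 3 on only the arrays compared, 4 without the 6 arrays, and 0 to 3 with 1 array left out. Over all probe sets the count there was 246 as reported, 3 with quantile normalisation, 93 with the replicate block, 1 with the bioC term, 615 with the SD filter, 762 on only the arrays compared, 2726 without the 6 arrays, 1733 with the seventh left out, and 1 to 4691 with 1 array left out. For the mean line difference (7) it was 4 with 1 probe set per gene, by construction, 0 with the bioC term, and 2 to 8 with 1 array left out. The lowest, 2, came without K-ras 25 mM 0 h replicate 2; 3 remained without NIH3T3 25 mM 0 h replicate 2, and 4 without NIH3T3 48 h replicate 1, either NIH3T3 72 h array or K-ras 48 h replicate 2. Over all probe sets that count was 3501 as reported, 2064 with 1 probe set per gene, 0 with the bioC term and 1438 to 4472 with 1 array left out. The mean line call of Tef probe set 1438033_at was lost with quantile normalisation (adjusted p = 0.0751), on only the arrays compared (0.0607), without the 6 arrays (0.0694), with the seventh left out (0.0988) and, like all others, with the bioC term. With the bioC term the Per1 difference was 0.078 and so reversed. The replicate block also ended the mean line call for Per1 (adjusted p = 0.0522) and changed no other call. For glucose in K-ras at 72 h and for the interaction of line and glucose (0 each), the count stayed at 0 in every alternative that kept 2 arrays in each group. For the other single-time comparisons (0) it was 1 on only the arrays compared. The number over all probe sets was not taken for that set, so this 1 cannot be set against a share. The cause of these moves was not tested. Of the 9 called differences, refits with 1 array left out kept 76 calls and lost 44, all in the same direction. Without the 6 arrays, no NIH3T3 array at 1 mM and 24 h is left, so the mean over 6 glucose differences and the comparisons at that time were not run. With 2 arrays a group and no signal over background, differences of 1 log2 unit at single times lie near the limit of what could be called, and ratios of dim genes may lie near background.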

Other observations

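The gap between the 2 replicates of a group was often as large as the differences between groups. Its median over the 10 genes, each by its most variable probe set, ran from 0.16 in K-ras cells at 1 mM and 24 h and 0.17 in NIH3T3 at 25 mM and 72 h to 0.92 in K-ras cells at 1 mM and 72 h and 1.00 in NIH3T3 at 1 mM and 72 h. Several of the widest gaps were between an array out of place and one in place. Per3 lay at 0.80 and -0.98 in K-ras cells at 1 mM and 72 h, Dbp at -0.46 and 1.31 in K-ras cells at 1 mM and 48 h, Nr1d1 at 0.92 and -0.75 in NIH3T3 at 1 mM and 48 h, and Per2 at 0.84 and -0.49 in K-ras cells at 25 mM and 0 h. In each of these the first value is from the array out of place. The widest gaps of Per1 (1.62 and 0.22) and Tef (1.12 and -0.35) were in NIH3T3 at 25 mM and 48 h, and that of Cry1 (-0.63 and 0.62) in NIH3T3 at 1 mM and 72 h, where neither array was out of place.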
